A study of Mus musculus with 6 samples.

Results

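The transcripts of 10 CC chemokines, Ccl2, Ccl3, Ccl4, Ccl5, Ccl6, Ccl7, Ccl9, Ccl12, Ccl22 and Ccl24, were followed through the acute LPS response of primary mouse bone-marrow-derived macrophages (BMDMs). The members were taken by gene symbol from the 54532 genes of the deposited expression table, and all 10 were found. RNA-seq compared 3 groups of BMDMs from wild-type C57BL/6 mice, with 2 libraries, A and B, in each. Control BMDMs received neither agent (untreated), a second group received LPS at 100 ng/ml for 2 h (LPS), and the third was pretreated with metformin at 5 mM for 6 h before the same LPS exposure (Met + LPS). No group received metformin alone, so the effect of metformin is seen only on top of LPS. The macrophages were grown from bone marrow for 6 days in medium conditioned by L929 cells, which supplies their growth factor, and represent macrophages in culture rather than in a tissue.

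Chemokines are small secreted proteins that guide the migration of leukocytes by binding receptors of the G protein-coupled family, and the CC class is named for a pair of adjacent cysteines. Macrophages are a main source of several CC chemokines, and LPS, the endotoxin of Gram-negative bacteria that is sensed through TLR4, is a classical trigger of their transcription. The members act on different cells and receptors: Ccl2, Ccl7 and Ccl12 are ligands of CCR2, the receptor of inflammatory monocytes, Ccl3, Ccl4 and Ccl5 attract monocytes and T cells, Ccl6 and Ccl9 are rodent chemokines that act on CCR1, Ccl22 is a ligand of CCR4 on T cells, and Ccl24 (eotaxin-2) is a ligand of CCR3 on eosinophils.

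Transcript levels are given in TPM, a read count corrected for transcript length with a fixed sum in every library, so levels may be compared between genes. Between libraries they are shares of that sum, and a difference depends also on what the other transcripts do. The low values allowed the reads to be recovered, and the libraries held between 25457016 and 30762755 reads on genes. Libraries A and B of a group differed by more than counting noise, with a mean chi-square per gene of 2.11 to 4.26 where counting alone gives 1, and none was a copy of another. The labels do not say whether A and B came from separate mice, and the paper's methods say only that the BMDMs were seeded in duplicate. The p-values thus measure only the spread between these libraries, which may be technical, and not the spread between animals. A total of 12755 genes, all 10 members among them, reached 1 TPM in 2 or more libraries and were tested with limma on log2(TPM + 1), and every log2 fold change below is on this scale, on which the change of a weakly expressed gene comes out too small. A gene was called at an adjusted p-value under 0.01 and an absolute log2 fold change of 2 or more against untreated, or 0.7 or more for Met + LPS vs. LPS. The median log2 fold change of all tested genes was -0.48 between LPS and untreated and -0.03 between Met + LPS and LPS, so that against untreated a value of -0.48 marks the middle of all genes. All 8 macrophage markers examined were present, and their summed level was 44621 to 46599 TPM without LPS, 37412 to 37903 TPM with it and 30877 to 30948 TPM after metformin and LPS. Most of this sum was Lyz2, at 33981 and 35844, 26974 and 26696, and 21203 and 21381 TPM in the same order. Cd68, Csf1r, Itgam and Mertk were also lower with LPS, as were 71.5% of all tested genes by position of the libraries, and Fcgr1 overlapped. Cd14 was higher with LPS (911 and 998 against 2639 and 2886 TPM), as was Adgre1 (1510 and 1575 against 1750 and 1684 TPM). Between LPS and Met + LPS libraries Cd68 overlapped. The other markers were lower in Met + LPS, as were 40.0% of all tested genes, with Fcgr1 at 153 and 177 TPM against 74.9 and 73.8 TPM. None of the 8 marker lists of other cell types summed to more than 45.5 TPM in any library.

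The most abundant CC chemokine changed with stimulation. In untreated BMDMs the order of the group means was Ccl9 at 764 ± 23.5 TPM (SD, n = 2), Ccl3 at 281 ± 12.9 TPM, Ccl6 at 187 ± 4.29 TPM and Ccl4 at 173 ± 7.10 TPM, and the other 6 members were at or below 13.9 TPM in both libraries. Neighbours in this order did not overlap between libraries, except Ccl12 and Ccl24 at its foot. After LPS, Ccl4 led at 12919 ± 13.5 TPM, followed by Ccl3 at 8370 ± 40.3 TPM, Ccl2 at 3981 ± 139.7 TPM, Ccl5 at 3266 ± 40.2 TPM and Ccl9 at 3207 ± 66.3 TPM. Ccl5 and Ccl9 overlapped there and were the only neighbours that did. In Met + LPS libraries the first 3 places were the same, at 17541 ± 620.8, 12105 ± 366.8 and 4755 ± 262 TPM, while Ccl9 came after Ccl7 and Ccl5, which overlapped with each other. Ccl4 was at rank 4 among all genes of the table in each of the 4 LPS-exposed libraries, and Ccl3 moved from rank 10 in both LPS libraries to rank 6 in both Met + LPS libraries.

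**Figure D1:**
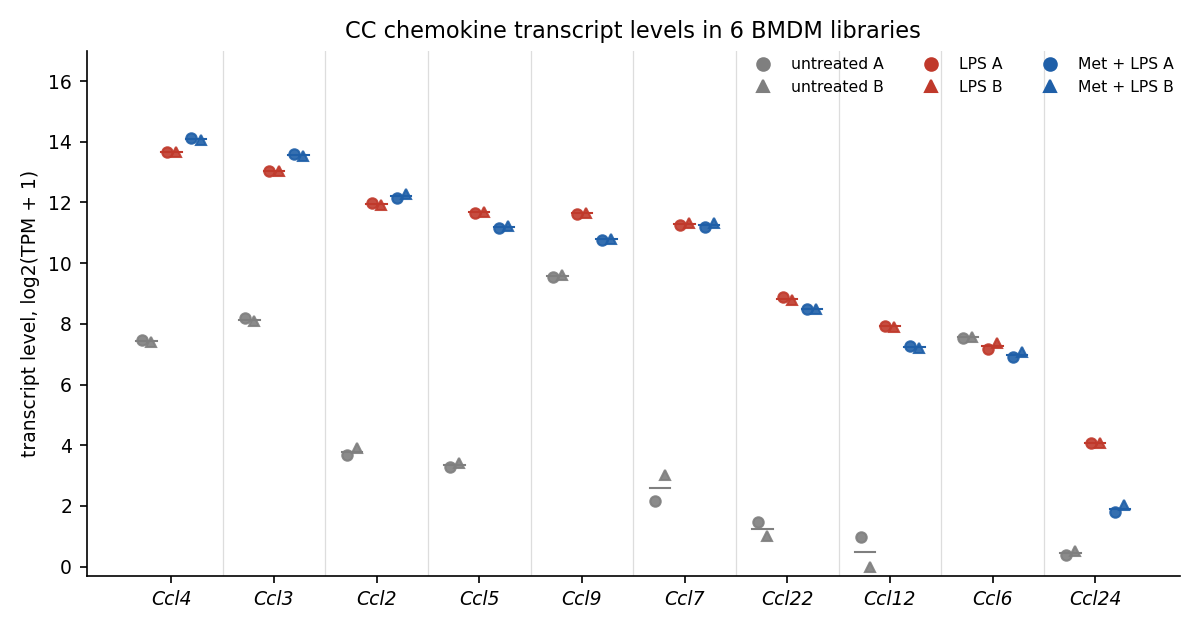
Transcript level of each CC chemokine, as log2(TPM + 1), in the untreated (grey), LPS (red) and Met + LPS (blue) libraries. Circles are replicate A, triangles replicate B and short lines the mean of both, with genes ordered by their LPS level. The red points lie above the grey ones for every gene but Ccl6, and blue lies above red for Ccl4, Ccl3 and Ccl2.

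LPS raised nearly all of these transcripts. Of the 10 members, 9 were called higher in LPS than in untreated BMDMs, where 3.72% of all tested genes were called higher and 2.37% lower, and no member was called lower. Ccl6 was the exception. The median log2 fold change of the members was 6.82, against -0.48 over all tested genes. Both LPS libraries lay above both untreated libraries for these 9 and below them for Ccl6, and among all tested genes 20.1% lay above and 71.5% below in the same way. The members were chosen with earlier results of these data known, so their counts and median describe this list only. Ccl12 and Ccl24 reached 1 TPM only in LPS-exposed libraries, so the filter admitted them only through groups where they were high.

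The CCR2 ligands stood at 13.9 TPM or less in untreated cells and were strongly expressed in LPS-stimulated cells. Ccl2 (MCP-1; chromosome 11, 82035571 to 82037453, GRCm38) measured 11.9 and 13.9 TPM in the untreated libraries, 4079 and 3882 TPM in the LPS libraries, and 4569 and 4940 TPM in the Met + LPS libraries. Both Met + LPS libraries were thus above both LPS libraries, and all 4 were far above the untreated ones. The log2 fold change with LPS was 8.17 ± 0.073 (SE; adjusted p = 2.6e-09 in limma), a 309-fold difference of mean TPM. With metformin it was 0.26 ± 0.073 (adjusted p = 0.0272 in limma), which did not pass the threshold.

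Ccl7 (MCP-3; chromosome 11, 82045712 to 82047525), the direct neighbour of Ccl2, measured 3.45 and 7.14 TPM in untreated, 2472 and 2550 TPM in LPS, and 2328 and 2576 TPM in Met + LPS libraries. It was the only member whose LPS and Met + LPS libraries overlapped, one Met + LPS library lying below and the other above both LPS libraries. Its log2 fold change with LPS was 8.70 ± 0.25 (adjusted p = 3.2e-07 in limma). The ratio of pooled reads was 485, with a 95% interval of 378 to 633, which, like the other intervals on reads, covers counting error only and not the spread between the untreated libraries, at 21 and 41 reads. With metformin its log2 fold change was -0.04, with a 95% interval of -0.63 to 0.56 (adjusted p = 0.92 in limma). In the fit of the LPS and Met + LPS groups alone the adjusted p was 0.668, and it was 0.559 to 1 over the 15 alternatives tried.

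Ccl12 (MCP-5; chromosome 11, 82101845 to 82103400), a mouse CCR2 ligand, measured 0.980 and 0 TPM in untreated, 241 and 239 TPM in LPS, and 152 and 147 TPM in Met + LPS libraries. The untreated values stand for 4 and 0 reads. The log2 fold change with LPS was 7.42 ± 0.28 (adjusted p = 1.1e-06 in limma), and the ratio of pooled reads was 482, with a wide 95% interval of 188 to 1773. Metformin left 62.4% of the LPS level. Both Met + LPS libraries were below both LPS libraries, but the log2 fold change of -0.68 (95% interval -1.35 to -0.01) had an adjusted p of 0.0879 in limma in the fit of all 6 libraries. In the fit of the LPS and Met + LPS groups alone, which leaves out the untreated libraries with their few reads, the standard error fell from 0.28 to 0.033 and the adjusted p was 7.6e-04 in limma, with a range of 8.9e-08 to 0.601 over the 15 alternatives. The same log2 fold change, -0.68, is just short of the cut-off of 0.7.

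Ccl3, Ccl4 and Ccl5, attractants of monocytes and T cells, held most of the CC chemokine transcript after LPS. Ccl3 (MIP-1 alpha; chromosome 11, 83647844 to 83649355) measured 291 and 272 TPM in untreated, 8399 and 8342 TPM in LPS, and 12364 and 11845 TPM in Met + LPS libraries. The groups were separate and in the same order in both libraries. The log2 fold change was 4.89 ± 0.042 with LPS (adjusted p = 2.3e-09 in limma) and 0.53 ± 0.042 with metformin (95% interval 0.43 to 0.63, adjusted p = 1.6e-04 in limma). The Met + LPS level was 1.45 times the LPS level.

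Ccl4 (MIP-1 beta; chromosome 11, 83662584 to 83664683), next to Ccl3, measured 178 and 168 TPM in untreated, 12910 and 12929 TPM in LPS, and 17980 and 17102 TPM in Met + LPS libraries. It followed Ccl3 in both comparisons, with no overlap between groups. Its log2 fold change was 6.22 ± 0.042 with LPS (adjusted p = 1.2e-09 in limma) and 0.44 ± 0.042 with metformin (95% interval 0.34 to 0.54, adjusted p = 3.1e-04 in limma), a Met + LPS level of 1.36 times the LPS level.

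Ccl5 (RANTES; chromosome 11, 83525778 to 83530518), a chemokine for T cells and monocytes, measured 8.77 and 9.60 TPM in untreated, 3237 and 3294 TPM in LPS, and 2286 and 2377 TPM in Met + LPS libraries. It shared the LPS response of Ccl3 and Ccl4 but lay on the other side of the LPS libraries with metformin. The log2 fold change was 8.33 ± 0.046 with LPS (adjusted p = 9.4e-10 in limma) and -0.49 ± 0.046 with metformin (95% interval -0.60 to -0.38, adjusted p = 3.0e-04 in limma). Of its LPS-induced rise in TPM, 71.3% was left in Met + LPS libraries. The ratio of Ccl3 to Ccl5 within a library, which does not depend on how libraries are scaled, was 2.59 and 2.53 in LPS and 5.41 and 4.98 in Met + LPS libraries.

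The rodent CCR1 ligands made up most of the members' transcript in untreated cells and had the smallest log2 fold changes with LPS. Ccl9 (MIP-1 gamma; chromosome 11, 83572919 to 83578636) measured 748 and 781 TPM in untreated, 3160 and 3254 TPM in LPS, and 1752 and 1768 TPM in Met + LPS libraries. The Met + LPS libraries lay between the other groups without overlap. Its log2 fold change was 2.07 ± 0.035 with LPS (adjusted p = 3.1e-08 in limma), just past the cut-off of 2, and -0.87 ± 0.035 with metformin (95% interval -0.95 to -0.78, adjusted p = 1.6e-05 in limma). Metformin thus left 54.9% of the LPS level and 40.8% of the LPS-induced rise.

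Ccl6 (C10; chromosome 11, 83587882 to 83593087) measured 184 and 190 TPM in untreated, 145 and 163 TPM in LPS, and 119 and 133 TPM in Met + LPS libraries. The 3 groups did not overlap, but the steps between them were small. Its log2 fold change was -0.28 ± 0.073 with LPS (adjusted p = 0.0102 in limma) and -0.29 ± 0.073 with metformin (adjusted p = 0.0171 in limma), and neither passed the threshold. The sign of the first depended on the scaling: it was 0.25 when libraries were rescaled by the median ratio over genes (adjusted p = 0.0240 in limma, and 4.6e-04 to 0.0741 over the 15 alternatives), which takes out the shift of the median gene. Between Met + LPS and untreated, the value of -0.57 (adjusted p = 3.3e-04 in limma) became -0.03 under that scaling (adjusted p = 0.721 in limma, the highest of the 15 alternatives, with 4.9e-08 the lowest).

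The remaining members are chemokines for lymphocytes and eosinophils. Ccl22 (MDC; chromosome 8, 94745590 to 94751699) measured 1.75 and 1.02 TPM in untreated, 469 and 439 TPM in LPS, and 356 and 357 TPM in Met + LPS libraries. Both Met + LPS libraries were below both LPS libraries. Its log2 fold change was 7.59 ± 0.13 with LPS (adjusted p = 3.5e-08 in limma). With metformin it was -0.35 ± 0.13 (95% interval -0.66 to -0.03, adjusted p = 0.0696 in limma), and the adjusted p was 0.0052 in the fit of the LPS and Met + LPS groups alone and 6.4e-07 to 0.234 over the 15 alternatives. The untreated libraries rest on 31 and 17 reads.

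Ccl24 (chromosome 5, 135569937 to 135573049) had the lowest level of the members in all 4 LPS-exposed libraries and the lowest log2 fold change with metformin. It measured 0.305 and 0.431 TPM in untreated, 15.9 and 15.9 TPM in LPS, and 2.45 and 3.05 TPM in Met + LPS libraries. The LPS libraries stood well above the other 4. These levels stand for 3 and 4, 157 and 150, and 24 and 35 reads. The log2 fold change was 3.63 ± 0.11 with LPS (adjusted p = 4.4e-07 in limma) and -2.18 ± 0.11 with metformin (95% interval -2.44 to -1.91, adjusted p = 3.0e-05 in limma). Metformin left 17.3% of the LPS level, and the ratio of pooled reads was 0.175, with a 95% interval of 0.130 to 0.231.

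Across the members, metformin pretreatment did not move the CC chemokines together. Against LPS, 2 of the 10, Ccl9 and Ccl24, were called lower, where 4.09% of all tested genes were called lower, and 0 were called higher, where 4.19% of all tested genes were. By the adjusted p-value alone 5 members passed, Ccl3 and Ccl4 with higher and Ccl5, Ccl9 and Ccl24 with lower levels, against 14.5% of all tested genes higher and 18.0% lower. By position of the libraries, 3 members (Ccl2, Ccl3 and Ccl4) had both Met + LPS libraries above both LPS libraries and 6 had both below, and this holds in the same way for 33.8% and 40.0% of all tested genes. The members' median log2 fold change was -0.32, against -0.03 for all tested genes, with a range of -2.18 to 0.53. In the fit of the compared groups alone, Ccl12 and Ccl22 joined the members past the adjusted p-value, which made 7, where 20.9% of all tested genes passed in either direction. With limma voom on the recovered reads 9 members passed, all but Ccl7, where 41.3% of all tested genes did.

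**Figure D2:**
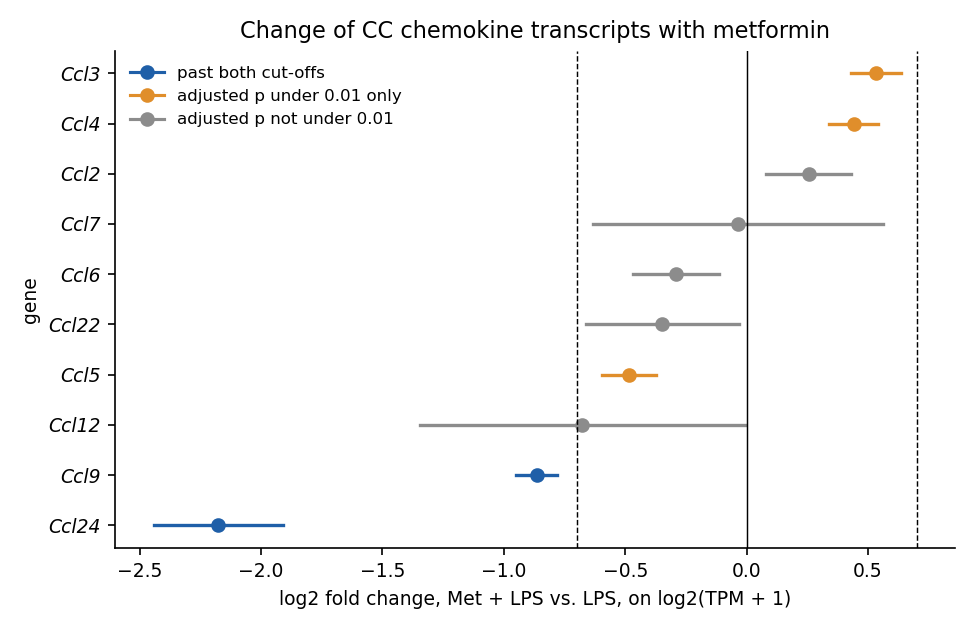
Log2 fold change of each CC chemokine between Met + LPS and LPS libraries, with its 95% interval from limma and dashed lines at the cut-offs of -0.7 and 0.7. Ccl24 at -2.18 and Ccl9 at -0.87 are past both cut-offs (blue), Ccl5, Ccl4 and Ccl3 passed the adjusted p-value alone (orange), and Ccl12 and Ccl7 have the widest bars.

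Compared with untreated BMDMs, the Met + LPS libraries still showed most of the LPS response. Called higher were 7 of the 10 members, where 3.18% of all tested genes were. Ccl12, which is among the 7, passed the filter on low values only through LPS-exposed libraries. The comparison shares its libraries with the other 2, so the values are set side by side only: the log2 fold changes against untreated were 8.17 and 8.42 for Ccl2 without and with metformin, 8.33 and 7.84 for Ccl5, 2.07 and 1.20 for Ccl9, and 3.63 and 1.45 for Ccl24. The 3 members not called were Ccl6, Ccl9 and Ccl24, the last of which passed with a pseudocount of 0.1 (2.61). The log2 fold changes relative to the median gene were 1.68 for Ccl9 and 1.93 for Ccl24.

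Summed over the 10 members, untreated libraries held 1434 ± 11.3 TPM (SD, n = 2), LPS libraries 35118 ± 13.8 TPM and Met + LPS libraries 41579 ± 468 TPM, or 0.143%, 3.51% and 4.16% of all TPM. The Met + LPS libraries, at 41909 and 41248 TPM, were both above the LPS libraries, at 35128 and 35108 TPM. This excess lay in Ccl3, Ccl4 and Ccl2. Ccl3 and Ccl4 together took 31.6% ± 1.64 of the sum in untreated, 60.6% ± 0.0525 in LPS and 71.3% ± 1.57 in Met + LPS libraries. Without them the sum was 13819 and 13838 TPM in LPS but 11566 and 12301 TPM in Met + LPS libraries. The share of Ccl9 and Ccl6 went the other way, from 66.3% ± 1.42 in untreated to 9.57% ± 0.231 in LPS and 4.54% ± 0.101 in Met + LPS libraries. In such bulk samples, fewer cells that make a transcript and less transcript per cell cannot be told apart.

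**Figure D3:**
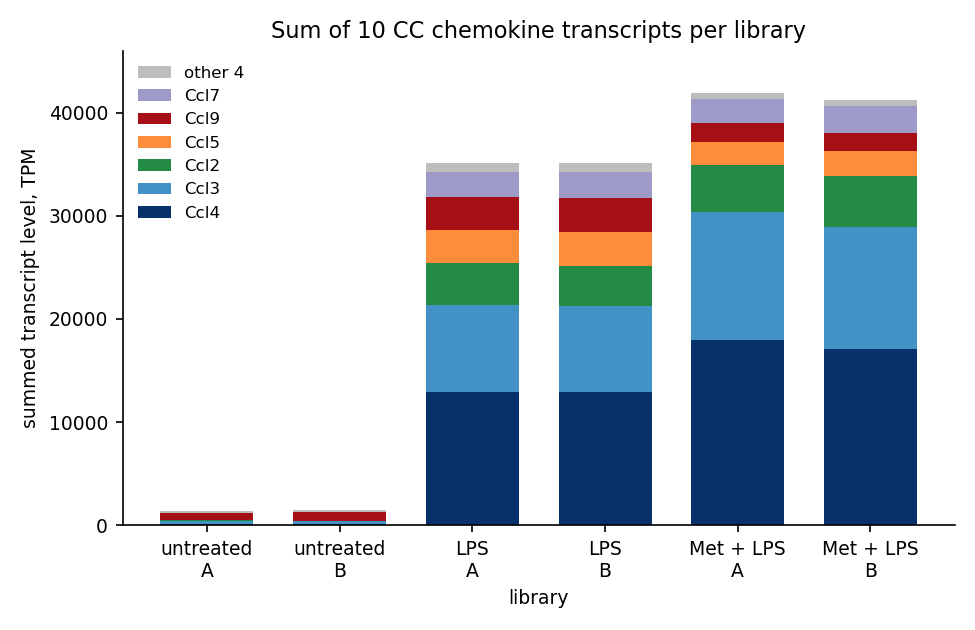
Summed transcript level of the 10 CC chemokines in each library in TPM, with the 6 most abundant shown by colour and the other 4 (Ccl6, Ccl12, Ccl22, Ccl24) in grey. The bars of both Met + LPS libraries reach 41909 and 41248 TPM and those of both LPS libraries 35128 and 35108 TPM, with a larger Ccl3 and Ccl4 part and a smaller Ccl9 part in Met + LPS.

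The members are clustered in the genome, and neighbours lay on different sides of their LPS level after metformin. On chromosome 11, 5 members lie in the order Ccl5, Ccl9, Ccl6, Ccl3 and Ccl4 within 138.9 kb. In this order the Met + LPS level was 71.4%, 54.9%, 81.6%, 144.6% and 135.8% of the LPS level, so that the first 3 were lower and the last 2 higher. The ratio of Ccl3 to Ccl9 within a library rose from 0.389 and 0.349 in untreated to 2.66 and 2.56 in LPS and 7.06 and 6.70 in Met + LPS libraries. In a second cluster on the same chromosome, Ccl2, Ccl7 and Ccl12 stood at 119.4%, 97.7% and 62.4% of their LPS level in that order. The ratio of Ccl2 to Ccl12 was 16.9 and 16.2 in LPS and 30.0 and 33.5 in Met + LPS libraries, and that of Ccl2 to Ccl7 was 1.65 and 1.52 against 1.96 and 1.92. These ratios were described only, without a test. Against LPS, Ccl9 alone among these genes was called, and Ccl3, Ccl4 and Ccl5 passed by the adjusted p-value only. Ccl6, Ccl2, Ccl7 and Ccl12 did not pass it. Both Met + LPS libraries lay above both LPS libraries for 33.8% of all tested genes and below them for 40.0%, so either direction was common. Between 96.0% and 100% of the 31-base words in the exons of each member occur in no other gene, and no member shares exon bases with another annotated gene, so little of the sequence could place a read in a wrong gene.

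**Figure D4:**
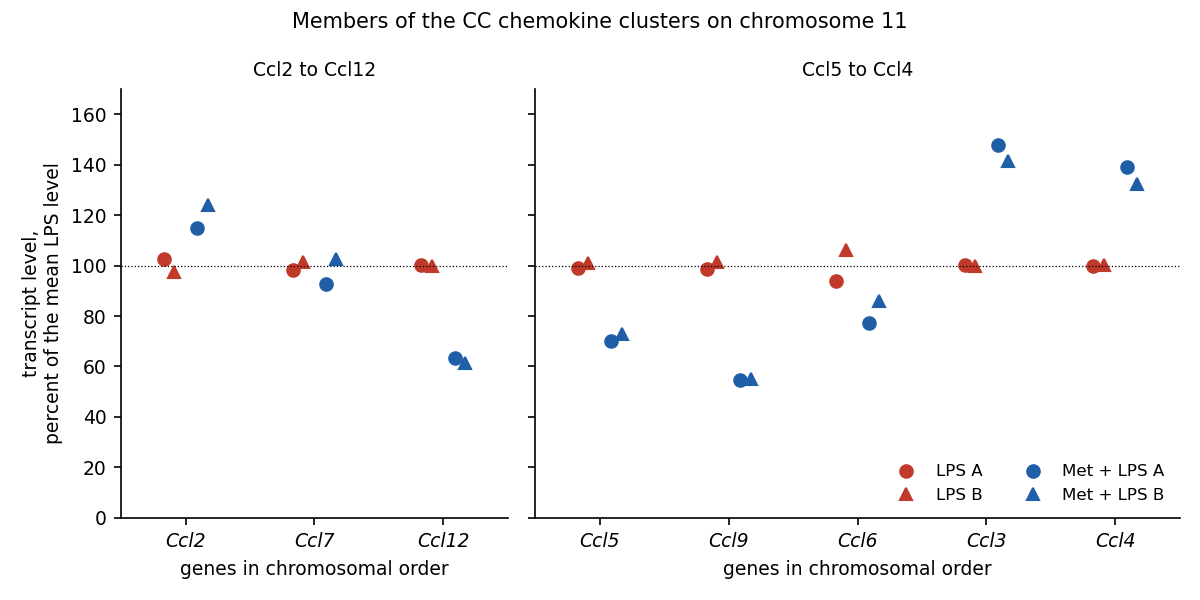
Transcript levels in LPS (red) and Met + LPS (blue) libraries as a percent of the mean LPS level, for the members of the chromosome 11 clusters in chromosomal order, replicate A as circles and B as triangles. In the cluster of Ccl5 to Ccl4, the blue points of Ccl5, Ccl9 and Ccl6 lie below the dotted line at 100 and those of Ccl3 and Ccl4 above it.

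Promoter sequences were available for 5 of the 10 members. Those of Ccl9, Ccl6 and Ccl3 are shown because these genes follow each other on the chromosome and differ in their levels, although Ccl6 passed in neither comparison. Each is the stretch of 250 bases before the transcription start in RefSeq (GRCm38.p6), on the minus strand and written 5′ to 3′, at chr11:83578637-83578886 for Ccl9, chr11:83593088-83593337 for Ccl6 and chr11:83649379-83649628 for Ccl3. Capitals mark matches to the motifs searched on both strands.
Ccl9: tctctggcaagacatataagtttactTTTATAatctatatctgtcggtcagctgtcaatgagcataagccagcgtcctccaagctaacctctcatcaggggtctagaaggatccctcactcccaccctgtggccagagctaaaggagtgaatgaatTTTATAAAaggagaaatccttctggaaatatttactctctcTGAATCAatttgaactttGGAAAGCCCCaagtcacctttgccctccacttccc
Ccl6: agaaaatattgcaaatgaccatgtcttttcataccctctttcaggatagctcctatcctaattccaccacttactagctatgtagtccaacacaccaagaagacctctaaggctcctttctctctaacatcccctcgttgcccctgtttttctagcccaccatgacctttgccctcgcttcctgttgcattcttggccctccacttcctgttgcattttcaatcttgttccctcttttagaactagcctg
Ccl3: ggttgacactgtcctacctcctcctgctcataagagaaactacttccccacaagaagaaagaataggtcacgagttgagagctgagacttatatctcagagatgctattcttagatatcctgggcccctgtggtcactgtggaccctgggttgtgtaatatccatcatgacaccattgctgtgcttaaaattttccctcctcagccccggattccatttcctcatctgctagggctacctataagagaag
The motifs were that of kappaB, a site of the transcription factor family NF-kappaB, AP-1 (TGANTCA), the TATA box (TATAAA), GAS (TTCNNNGAA), a site of STAT factors, and the E-box (CACGTG). Ccl9 held 1 kappaB match (35 to 26 bases before the start, read on the opposite strand) and 1 AP-1 match (53 to 47 bases before it). It also held 3 TATA matches on either strand, of which 2 overlap each other. Ccl6 and Ccl3 held none of the 5 motifs in this window. Of the promoters of Ccl12 and Ccl22, not shown, that of Ccl12 had 1 TATA match 31 to 26 bases before the start. Of 32851 promoter windows of the same length, 7.25% held a kappaB match, 6.75% an AP-1 match, 12.4% a TATA match, 7.02% a GAS match and 6.02% an E-box. A match describes the letters only.

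The other CC ligands were mostly silent. Of 14 listed, 13 were in the table and 3 passed the filter on low values. Of these 3, Ccl8 and Ccl17 reached 1 TPM only in LPS-exposed libraries. Ccl8 (MCP-2; chromosome 11, 82115185 to 82116799), which follows Ccl12, measured 0.515 and 0 TPM in untreated, 22.9 and 19.8 TPM in LPS, and 8.03 and 8.18 TPM in Met + LPS libraries. It was called higher with LPS, by 4.18 ± 0.19 on the log2 scale (adjusted p = 2.6e-06 in limma), and lower with metformin, at -1.29 ± 0.19 (adjusted p = 0.0018 in limma). Its untreated levels rest on 2 and 0 reads, and the ratio of pooled reads with LPS was 81.8, with a 95% interval of 22.3 to 681. Ccl17 (TARC; chromosome 8, 94810453 to 94812036), the other CCR4 ligand and a neighbour of Ccl22, measured 0 and 0.543 TPM, 51.1 and 40.5 TPM, and 26.8 and 30.1 TPM in the same order. It was called higher with LPS (5.23 ± 0.21, adjusted p = 1.5e-06 in limma), and its value with metformin, -0.66 ± 0.21 (adjusted p = 0.0386 in limma), did not pass. Ccl25, a thymus and gut chemokine, stayed between 0.791 and 2.08 TPM and was called in neither comparison.

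Of 14 CC receptors examined, atypical ones included, 5 passed the filter. With LPS 1 was called higher, Ccrl2, where 3.72% of all tested genes were. Ccrl2, an atypical receptor that binds chemerin, measured 20.5 and 21.5 TPM in untreated, 685 and 688 TPM in LPS, and 1912 and 1777 TPM in Met + LPS libraries. With metformin 2 were called higher and 1 lower, against 4.19% and 4.09% of all tested genes. Ccrl2 was again higher (1.42 ± 0.045, adjusted p = 8.6e-06 in limma), and so was Ccr7, the lymph node homing receptor, at 0.996 and 1.04 TPM in LPS against 3.28 and 3.08 TPM in Met + LPS libraries (1.05 ± 0.19, adjusted p = 0.0046 in limma). Ccr3, the receptor of Ccl24, measured 7.88 and 8.79 TPM in untreated libraries and 23.6 and 25.4 TPM in LPS libraries (1.45 ± 0.099, adjusted p = 1.6e-05 in limma, short of the fold cut-off). After metformin it was at 12.7 and 15.4 TPM (-0.76 ± 0.099, adjusted p = 0.0011 in limma). Both Met + LPS libraries of Ccr3 lay below the LPS libraries, and it was the receptor called lower. Ccr2, the receptor of Ccl2, fell by 1.10 on the log2 scale with LPS (adjusted p = 3.2e-05 in limma), from 7.59 and 7.14 TPM to 2.86 and 2.94 TPM, and by a further 0.61 with metformin (adjusted p = 0.0017 in limma), to 1.605 and 1.49 TPM, both short of the fold cut-offs. With median-ratio scaling the first value was -0.66. With voom on the recovered reads the second value was -0.91 (adjusted p = 1.9e-05 in limma voom), past the cut-off of 0.7. Ccr1, the receptor of Ccl6 and Ccl9, was higher with LPS by 0.64 (adjusted p = 1.9e-04 in limma) and lower with metformin, at -0.43 (adjusted p = 0.0039 in limma), both short of the fold cut-offs.

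**Figure D5:**
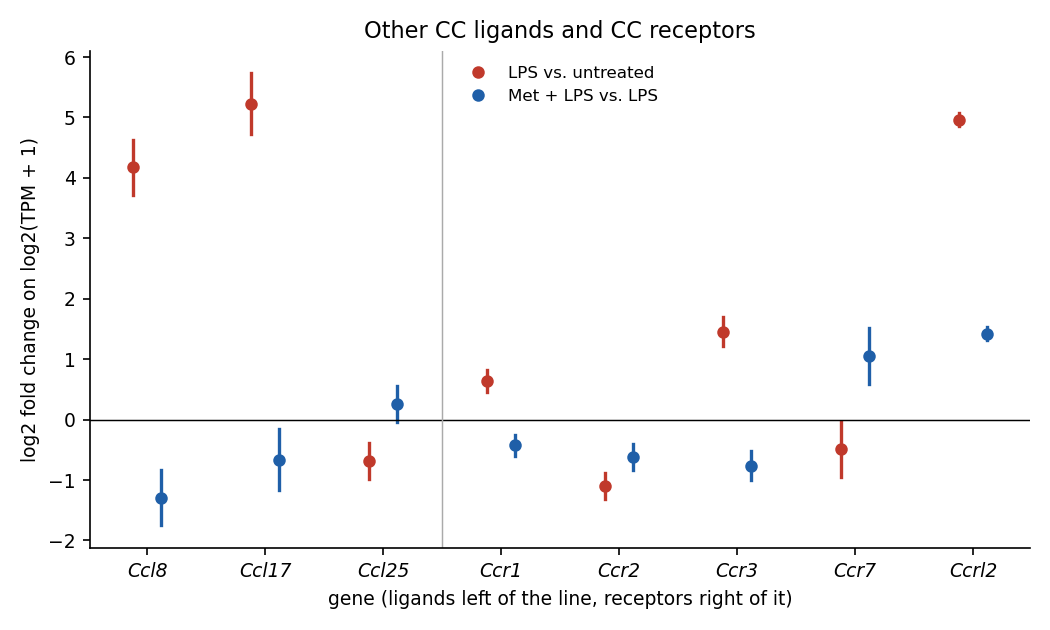
Log2 fold changes of the other CC ligands and of the CC receptors that passed the filter on low values, for LPS vs. untreated (red) and Met + LPS vs. LPS (blue), with 95% intervals from limma. Ccrl2 is above 0 in both comparisons, at 4.97 and 1.42, while Ccl8 and Ccr3 are above 0 with LPS and below it with metformin.

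Of 15 CXC chemokines, the sister class, 11 passed the filter. With LPS 6 of them were called higher, where 3.72% of all tested genes were, and the median log2 fold change over the 11 was 5.36. Some of the 11 reached 1 TPM only in LPS-exposed libraries, so the filter admitted them only through groups where they were high. With metformin 1 was called higher and 2 lower, against 4.19% and 4.09% of all tested genes, and the median was -0.16. The corresponding medians of the CC members were 6.82 and -0.32, and the classes were not tested against each other.

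Genes whose profiles over the 6 libraries lay nearest to those of 4 members were found by Euclidean distance in centred log2(TPM + 1). Nearest to Ccl2 were Ptgs2, which encodes cyclooxygenase-2 (distance 0.26), Gbp5 (0.39) and Il12b (0.46). Nearest to Ccl3 were Ifih1, the sensor MDA5 (0.29), Gem (0.44) and Csrnp1 (0.47). Nearest to Ccl5 were Socs3 (0.50), Il27 (0.51) and Gbp5 (0.55). Nearest to Ccl24 were Sema4c (0.23), Nudt17 (0.56) and Cnn3 (0.63). Each measured less in both Met + LPS than in both LPS libraries, which follows from their choice by distance over these same libraries. Sema4c, for instance, was at 87.2 and 97.8 TPM in LPS and 18.2 and 19.1 TPM in Met + LPS libraries. None of these nearest genes was itself a member.

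The neutrophil list summed to 29.9 to 32.6, 26.5 to 28.0 and 43.6 to 45.5 TPM in the untreated, LPS and Met + LPS groups. Its gene Ly6g was at 0 in 5 of the 6 libraries, but Elane was at 6.27 to 17.4 TPM and S100a9 at 4.01 to 16.7 TPM. S100a8, Mpo and Ngp were above 1 TPM in all 6, and Camp and Retnlg below it. The dendritic cell list, a cell type known for Ccl17 and Ccl22, summed to 2.19 to 3.44, 3.45 to 3.48 and 5.27 to 6.16 TPM, most of it Ccr7 in the Met + LPS libraries. Flt3 was below 0.11 TPM in all 6, and Clec9a and Siglech were below 1 TPM. Zbtb46 measured 0.108 and 0.164 TPM in untreated, 1.53 and 1.14 TPM in LPS, and 0.824 and 0.744 TPM in Met + LPS libraries. Xcr1 measured 0.089 and 0.031, 0.561 and 0.831, and 1.13 and 1.17 TPM in the same order. The eosinophil list reached at most 3.06 TPM, with Epx at 0 in 5 libraries. Siglecf, the only gene of that list to pass the filter on low values, was at 1.62 to 3.06 TPM. The T cell and erythroid lists reached at most 0.278 and 0.365 TPM. The B cell list was at most 3.18 TPM, the mast cell and basophil list at most 1.56 TPM and the stromal list at most 0.879 TPM. Their part in the chemokine values was not tested.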

How the data were processed

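The deposited table gives TPM for 54532 genes in 6 libraries, replicates not pooled. According to the methods and the submitters' processing notes, the authors enriched poly-A RNA, prepared TruSeq RNA libraries, aligned single-end reads to GRCm38 with STAR 2.6.1d and counted them with featureCounts of Subread 1.6.3 (SAMtools 1.9 is also listed); how counts became TPM is not given in the sources used here. The kit does not keep strand, so opposite-strand reads at a locus cannot be told apart. TPM fixes the total per library and hides differences in RNA content.

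The 12755 genes that reached 1 TPM in 2 or more libraries were fitted with limma 3.58.1 (R 4.3.3; lmFit, eBayes with trend) on log2(TPM + 1), all 6 libraries in 1 fit with 3 residual degrees of freedom, with Benjamini-Hochberg adjustment over all tested genes. Cut-offs follow the study, and that of LPS served for Met + LPS vs. untreated. A two-sided exact permutation test of 2 against 2 cannot go below p = 0.333, so significance rests on the spread limma pools over genes. Reads were recovered from TPM and exon lengths (54495 genes), and 96.0% to 96.2% of values above 0 were whole within 0.01 reads. Ratios of pooled reads have exact 95% intervals. The reads also served limma voom (12144 genes).

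All 10 members were named, as were other CC ligands and receptors that passed the filter. 1 gene of the receptor list is not reported here. CXC chemokines were counted, and the 3 genes of nearest profile were named for Ccl2, Ccl3, Ccl5 and Ccl24. The members and lists were chosen with earlier results of these data known. Other settings tried were a pseudocount of 0.1, no filter (23749 genes), a minimum of 5 TPM (9785 genes), median-ratio scaling, a fit of the compared groups only, a replicate block, eBayes without a trend, voom, omission of each library in turn and a log2 cut-off of 1. Counts by the adjusted p-value alone were added after seeing the data. Plots were drawn with matplotlib 3.10.9 and tables made with pandas 2.3.3, scipy 1.17.1 and numpy 2.4.6 in Python 3.11.15.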

Additional observations from a re-analysis of the deposited data

How the results depend on the processing

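The 9 CC chemokines called with LPS were the same genes under each alternative. Between Met + LPS and untreated, 7 were called, or 8 with a pseudocount of 0.1 or voom and 9 with a cut-off of 1, and the same 7 without any 1 library. Between Met + LPS and LPS, Ccl9 and Ccl24 were called under each alternative except a cut-off of 1, which left 1 call because Ccl9 (-0.87) does not reach it, and leaving out libraries gave 2 to 2. By the adjusted p-value alone, 5 members became 9 with voom and 5 to 7 without 1 library. The 7 were reached without untreated replicate A and without untreated replicate B, where Ccl12 and Ccl22 passed.

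Ccl6 turned to 0.25 between LPS and untreated under median-ratio scaling, and Ccl7 moved from -0.109 to 0.037 between Met + LPS and LPS with 1 library left out, turning positive without Met + LPS replicate A. In neither case was the adjusted p-value under 0.01, and the cause was not tested. Between Met + LPS and untreated, Ccl24 passed both cut-offs with a pseudocount of 0.1 (2.61), voom (2.78) and a cut-off of 1 (1.45), and Ccl9 with a cut-off of 1 (1.20).

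Counts over all genes moved more. LPS vs. untreated called 776 genes, but 1512 with a pseudocount of 0.1, 1537 with voom and 3556 with a cut-off of 1. Met + LPS vs. untreated called 682, but 1457, 1500 and 3714. Met + LPS vs. LPS called 1056, but 455 with a cut-off of 1. Median-ratio scaling changed the split for LPS vs. untreated from 474 higher and 302 lower to 664 and 129, and for Met + LPS vs. untreated from 406 and 276 to 571 and 99. With voom the first split was 690 and 847.

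No pairing of libraries by replicate letter was seen across genes: deviations from the group means correlated at -0.0037, 0.0062 and 0.028 between groups. These correlations are taken over all tested genes, so they cannot exclude a pairing that touches few of them. With the letter as a replicate block, 9, 2 and 7 members were called, the counts over all genes were 777, 1044 and 682, and 6 members passed by the adjusted p-value alone, Ccl6 being added.

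Few reads limit Ccl12, Ccl24, Ccl22 and Ccl7 in untreated libraries, where the size of the LPS response is the least certain. With voom it was 9.31 for Ccl12 and 5.29 for Ccl24 on the log2 scale.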

Other observations

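Beyond the members, the neighbourhoods of the CC chemokine clusters held genes of the same and of other families. Cx3cl1 (fractalkine), a chemokine of another class that lies between Ccl22 and Ccl17 on chromosome 8, measured 1.87 and 1.28 TPM in untreated, 40.5 and 39.7 TPM in LPS, and 36.3 and 37.5 TPM in Met + LPS libraries. Its log2 fold change was 4.01 ± 0.11 with LPS (adjusted p = 2.3e-07 in limma) and -0.12 ± 0.11 with metformin (adjusted p = 0.405 in limma). Set beside it, the values with metformin were -0.35 for Ccl22 and -0.66 for Ccl17.

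Not every gene of the clusters was measured above the floor in LPS-stimulated cells. Ccl11 (eotaxin-1), which lies between Ccl7 and Ccl12, and Ccl26, which lies beside Ccl24, were listed at 0 in all 6 libraries, and Ccl1 was between 0 and 0.191 TPM. Cx3cl1 and the genes named in this paragraph were chosen for their position, after values had been seen.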
